A study of Mus musculus with 7 samples.

Results

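The 10 genes described here encode the main heat shock proteins of the cytosol, 2 of their partners (*Dnajb1* and *Bag3*) and *Hsf1*, the transcription factor that induces them. They were chosen by name from the table of read counts, with earlier results of these data known. All 10 were present among its 14819 rows and passed edgeR's expression filter. Livers of male mice gave the hepatocytes, in 4 WT samples and 3 samples of WDR6-WKO mice, in which exon 2 of *Wdr6* is deleted in the whole body with CRISPR–Cas9. Neither group was treated, the cells were kept overnight in William's E medium with serum, and the methods name C57BL/6J mice of 7 weeks as the default, without restating strain or age for the WDR6-WKO mice. Whether the WT mice were littermates is not given in the sources used here. Because the deletion is present in every tissue, the hepatocytes came from livers whose other cells and whose whole organism lacked the gene as well. The study's methods describe replicates as biological in general, but the labels do not say that the samples of a group came from separate mice, and the p-values measure the spread between these samples.

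Heat shock proteins are molecular chaperones that bind unfolded stretches of other proteins. HSP70 proteins take up client proteins delivered by J-domain proteins, and nucleotide exchange factors release the client again; HSP90 receives a subset of these clients for their final maturation. Some genes of the family are expressed in every cell at all times (*Hspa8*, *Hsp90ab1*), and others are strongly induced by heat or proteotoxic stress when HSF1 binds heat shock elements in their promoters (*Hspa1a*, *Hspa1b*, *Hsph1*, *Dnajb1*, *Hspb1*). In the liver the family supports the folding of a very large output of newly made protein.

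The promoters are shown first because HSF1 binds to a simple repeat. A heat shock element is made of inverted units of 5 bases, and a match was searched as 3 units (GAANNTTCNNGAA or TTCNNGAANNTTC, which are each other's reverse complement) or as 2 units (GAANNTTC or TTCNNGAA, each its own reverse complement, and each contained in the 3-unit pattern). The windows cover 250 bases before to 50 bases after the start site, in RefSeq's GRCm38.p6 annotation, and were matched by symbol for 6 of the 10 genes. No window was read for *Hspa8*, *Hsp90aa1*, *Hsp90ab1* and *Hsf1*. These 6 genes had 8 windows. The 3-unit pattern was found in 0.603% of all 32851 promoter windows and in 2 of the 8, both of *Hsph1*. The 2-unit pattern was found in 15.1% of all windows and in 6 of the 8, from 5 of the 6 genes. With 1 mismatch allowed among the 3 units, 7.22% of all windows and 5 of the 8, from 4 of the 6 genes, held a match. The matches are printed 5′ to 3′ on the strand of the gene, with the matched letters in capitals and the start site counted as base 1:
Hsph1, from base 16, chr5:149636280-149636309, minus strand: tgctgcagaTTCTGGAAAGTTCtcctcagt
Hsph1, from base -54, chr5:149636351-149636380, minus strand: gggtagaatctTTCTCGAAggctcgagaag
Hspa1a, from base -104, chr17:34972242-34972271, minus strand: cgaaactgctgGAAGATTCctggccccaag
Hspa1b, from base -104, chr17:34959324-34959353, minus strand: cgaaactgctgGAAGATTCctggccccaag
Hspb1, from base -117, chr5:135887791-135887820, plus strand: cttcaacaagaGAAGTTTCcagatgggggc
Hspb1, from base -97, chr5:135887811-135887840, plus strand: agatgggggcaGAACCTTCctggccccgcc
Bag3, from base 43, chr7:128523603-128523632, plus strand: ccaagttctctggatgggaccaGAAGTTTC
The first *Hsph1* match is the only one with all 3 units in the printed set. RefSeq gives *Hsph1* 2 start sites, and both windows hold that match, at base 16 from one start and base 37 from the other. The windows of *Hspa1a* and *Hspa1b* are the same at the match and identical in 296 of their 300 bases. Neither of the 2 windows of *Dnajb1* held the 2-unit letters. A match describes the sequence and does not show that HSF1 was bound there in these cells.

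The libraries held between 17816913 and 23668940 counted reads, and levels are given as TMM-scaled CPM, counts scaled to a common library total after edgeR's scaling. *Wdr6* itself was counted at 40.6 to 49.0 CPM in WT and 2.23 to 2.58 CPM in WDR6-WKO libraries, 5.39% of the WT mean. Every result is a test of WDR6-WKO against WT with edgeR's quasi-likelihood method, and a gene is called when its p-value, adjusted over 14779 genes, is under 0.05. WDR6-WKO replicate 3 stood apart from its group. Its counts differed from those of the other 2 WDR6-WKO libraries with a chi-square of 15.8 and 17.8 per gene, against 4.09 to 9.12 for the other pairs of the same genotype. Without it, 4233 genes were called in place of 1897, so values without it are given where they differ most. Of all genes, 6.18% were called lower and 6.65% higher, and 14.1% and 14.5% without replicate 3, and the marker counts that follow are read against these shares. Of the hepatocyte markers, 15 of 16 were tested, 8 were called lower and 1 higher, none was at 0, and their summed level was 18001 to 21274 CPM in WT and 15649 to 17594 CPM in WDR6-WKO libraries. Of 15 Kupffer cell markers 4 were higher and 0 lower, with a summed level of 942 to 1050 CPM in WT and 1091 to 1295 CPM in WDR6-WKO; without WDR6-WKO replicate 3, 8 were higher. Endothelial markers (0 higher and 1 lower of 10, summed 330 to 378 CPM in WT and 311 to 368 CPM in WDR6-WKO), stellate cell markers (2 higher and 0 lower of 10, 678 to 739 and 731 to 797 CPM, 4 higher without WDR6-WKO replicate 3) and cholangiocyte markers (2 higher and 0 lower of 7, 3099 to 3395 and 3743 to 4337 CPM) were also counted. *Spp1* alone held most of the cholangiocyte sum, at 2824 to 3139 CPM in WT and 3464 to 4082 CPM in WDR6-WKO libraries. Of the 7 cholangiocyte markers, 4 had a log2 fold change above 0 and 3 below it. The part of these marker differences in the results on heat shock genes was not tested, and in bulk RNA fewer cells of a type and less RNA per cell cannot be told apart.

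In WDR6-WKO hepatocytes edgeR called 4 of the 10 heat shock genes lower and 0 higher. The genes called were *Hspa8*, *Hsph1*, *Hspb1* and *Bag3*, each 13.7% to 19.0% below its WT mean. Of all genes tested, 6.18% were called lower and 6.65% higher, 12.8% in all. Because the 10 genes were chosen with earlier results of these data known, the shares in this paragraph are descriptions only. The median log2 fold change of the 10 genes was -0.13, against 0.01 for all genes tested, and 8 of the 10 were below 0, as were 48.8% of all genes. An unadjusted p under 0.05 was reached by 5 of the 10 genes, all lower, and by 28.1% of all genes in either direction. DESeq2 and limma-voom each called 5 lower and 0 higher. Over all genes, DESeq2 called 2000 and limma-voom 1840 in either direction. By the thresholds in the study's methods (a log2 fold change of 0.35 or more in either direction and an unadjusted p under 0.05), 0 of the 10 genes were DEGs, against 10.4% of all genes in the edgeR fit. Without WDR6-WKO replicate 3, 5 of the 10 were called lower where 14.1% of all genes were (28.6% in either direction), and 2, *Hspa8* and *Hsph1*, passed the thresholds of the study, as 13.2% of all genes did. For 5 of the 10 genes every WDR6-WKO library had a lower CPM than every WT library, which held for 11.7% of all genes tested, and ranges were apart in either direction for 23.5%. Together the 10 genes took 0.669% to 0.682% of all counted reads in WT libraries and 0.590% to 0.644% in WDR6-WKO libraries.

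**Figure D1:**
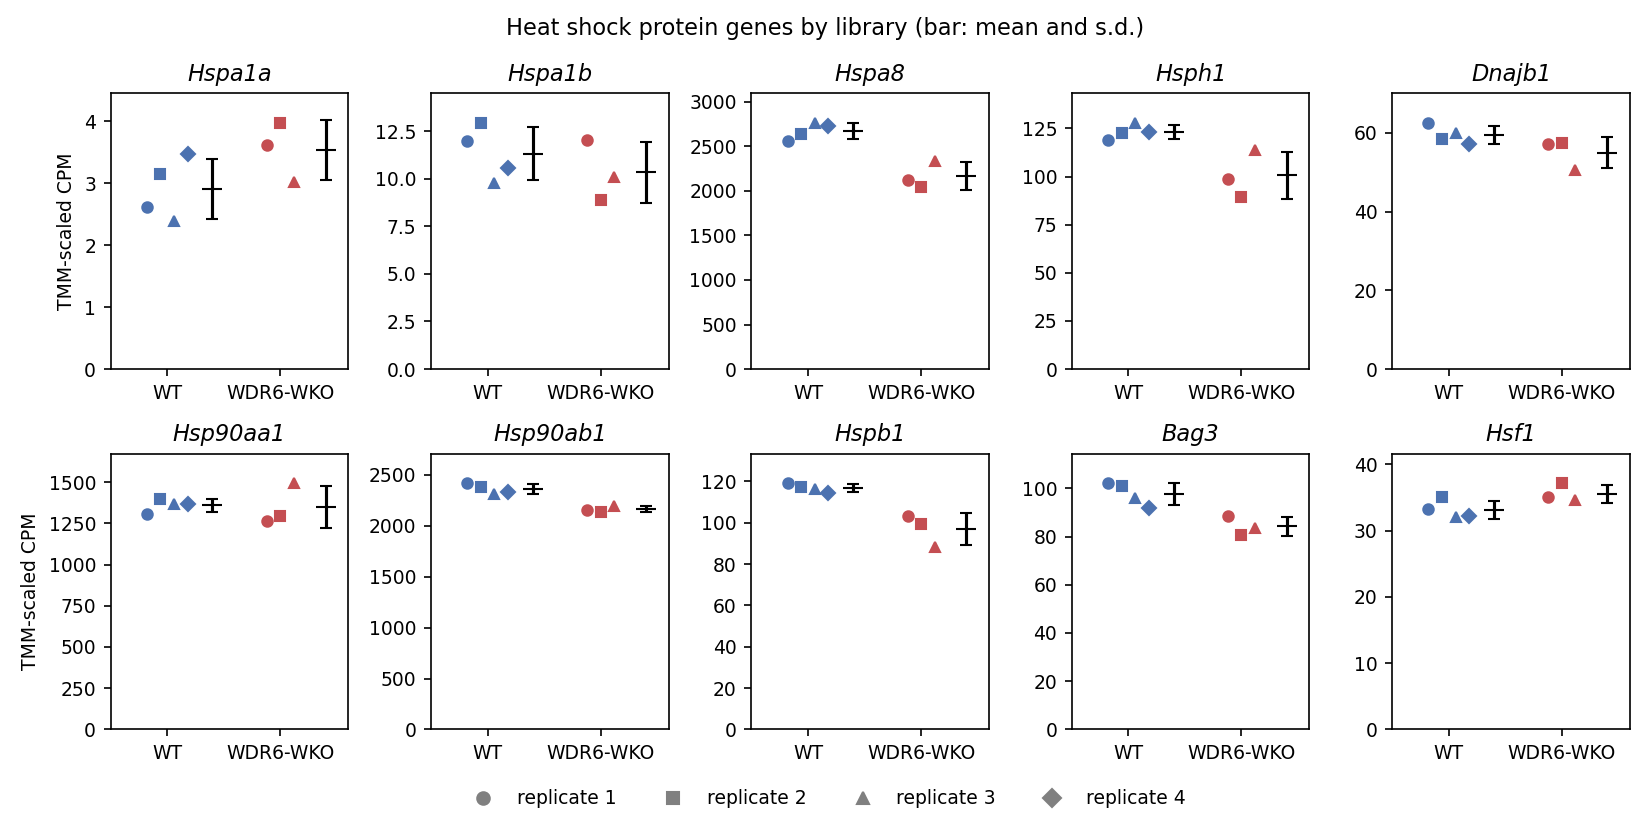
TMM-scaled CPM of each of the 10 genes in the 4 WT and 3 WDR6-WKO libraries, with a symbol for each replicate number and the mean ± s.d. beside the points; each axis starts at 0. The groups do not overlap for *Hspa8*, *Hsph1*, *Hsp90ab1*, *Hspb1* and *Bag3*, where every WDR6-WKO library is below every WT library.

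*Hspa8* encodes HSC70, the constitutive HSP70 of the cytosol, which folds new proteins, uncoats clathrin vesicles and delivers substrates to chaperone-mediated autophagy. It stood at 2566, 2639, 2762 and 2729 CPM in WT replicates 1 to 4 and at 2119, 2044 and 2338 CPM in WDR6-WKO replicates 1 to 3. The highest WDR6-WKO library was thus below the lowest WT library. The mean fell from 2674 ± 89.0 CPM (s.d., n = 4) for WT to a WDR6-WKO mean of 2167 ± 153 CPM (s.d., n = 3), to 81.0% of WT. The log2 fold change was -0.30 with a standard error of 0.05 and a 95% interval of -0.41 to -0.19 (adjusted p = 0.00114 in the edgeR test). An exact two-sided permutation test gave p = 0.0286, the smallest it can give. *Hspa8* stayed called with each library left out in turn, with a log2 fold change of -0.36 to -0.26. WDR6-WKO replicate 3 was the nearest to WT, at -0.19 on the log2 scale relative to the WT mean, while replicates 1 and 2 were at -0.34 and -0.39.

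*Hspa8* lies on chromosome 9 of GRCm38 from 40800984 to 40810087, and its coding transcript has 9 exons in the GENCODE M21 annotation. Of the 50-base sequences in this transcript, 74.8% occur in other annotated genes as well, mostly in processed copies such as *Gm15459*. The copies *Gm8355* and *Gm6210* were among the genes tested. *Gm8355* shares 46.0% of them and stood at 5.60 CPM in WT and 3.56 CPM in WDR6-WKO hepatocytes (log2 fold change -0.65, adjusted p = 0.0100 in the edgeR test). *Gm6210* was counted at 0.879 CPM in WT and 0.679 CPM in WDR6-WKO. How the counting placed reads that fit several copies is not given in the sources used here, so the level of *Hspa8* is uncertain to that extent. Exons of *Hspa8* also share 262 bases with the small nucleolar RNAs *Snord14c*, *Snord14d* and *Snord14e* on the same strand.

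*Hspa1a* and *Hspa1b* are the heat-inducible HSP70 genes, neighbours without introns on chromosome 17 (34969190 to 34972156 and 34956436 to 34959238, both on the minus strand). *Hspa1a* was counted at 2.62, 3.14, 2.39 and 3.46 CPM in WT and at 3.62, 3.97 and 3.02 CPM in WDR6-WKO replicates 1 to 3. *Hspa1b* stood at 12.0, 12.9, 9.78 and 10.6 CPM in WT and at 12.1, 8.88 and 10.1 CPM in WDR6-WKO. The groups overlapped for both genes. The log2 fold change of *Hspa1a* was 0.29 (95% interval -0.10 to 0.67, adjusted p = 0.326 in the edgeR test) and that of *Hspa1b* was -0.13 (95% interval -0.40 to 0.14, adjusted p = 0.562). Neither gene was called, and their intervals were the widest of the 10. Libraries held 45 to 87 reads of *Hspa1a* and 181 to 290 of *Hspa1b*, the lowest counts among the 10 genes. With 1 library left out, *Hspa1b* ranged from -0.26 without WDR6-WKO replicate 1 to -0.026 without replicate 2 (-0.058 without WT replicate 2, -0.19 without WT replicate 3), and *Hspa1a* from 0.20 to 0.38, with neither called.

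The sequences of the pair are so alike that the split of reads between them is uncertain: 58.8% of the 50-base sequences of *Hspa1a* occur in *Hspa1b*, and 62.3% of those of *Hspa1b* occur in *Hspa1a*. The exon of *Hspa1a* also shares 564 bases with *Gm20481* on the opposite strand, and whether the counting used strand is not given in the sources used here. Summed over both genes, WT hepatocytes had 14.2 ± 1.61 CPM (s.d., n = 4) and those of WDR6-WKO mice 13.9 ± 1.55 CPM (s.d., n = 3). For the sum, the log2 fold change was -0.03 with a 95% interval of -0.27 to 0.20 (adjusted p = 0.889 in the edgeR test), so the sign seen for *Hspa1a* alone was turned by summing. The inducible pair amounted to 0.441% to 0.609% of the *Hspa8* reads in WT libraries and 0.561% to 0.739% in WDR6-WKO libraries, with overlapping ranges.

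*Hsph1* encodes HSP105, a large HSP70 relative that acts as a nucleotide exchange factor for HSP70 and as a part of the disaggregation machinery. Its level was 119, 123, 128 and 123 CPM in WT and 98.6, 89.4 and 114 CPM in WDR6-WKO replicates 1 to 3. The groups did not overlap, but WDR6-WKO replicate 3 lay closer to the lowest WT library than to the other libraries of its own genotype. The mean fell from 123 ± 3.71 CPM (s.d., n = 4) for WT to a WDR6-WKO mean of 101 ± 12.3 CPM (s.d., n = 3), to 81.7% of WT, with a log2 fold change of -0.29 (SE 0.07, 95% interval -0.44 to -0.15, adjusted p = 0.0110 in the edgeR test; exact permutation p = 0.0286). The call was lost without WDR6-WKO replicate 1 (adjusted p = 0.0548) or replicate 2 (adjusted p = 0.0594), and without replicate 3 the log2 fold change was -0.39 in the edgeR fit. *Hsph1* lies on chromosome 5 from 149614287 to 149636376 on the minus strand, and its coding transcript of 18 exons shares no 50-base sequence with another gene. It is the gene whose promoter window held the 3-unit letters printed above.

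*Bag3* encodes a second exchange factor of HSP70, which links it to small heat shock proteins and to selective autophagy of misfolded proteins. It stood at 102, 101, 95.9 and 91.8 CPM in WT and at 88.4, 80.8 and 83.6 CPM in WDR6-WKO replicates 1 to 3. All WDR6-WKO libraries were below all WT libraries, and here replicate 3 lay between the other 2. The mean fell from 97.6 ± 4.72 CPM (s.d., n = 4) for WT to a WDR6-WKO mean of 84.2 ± 3.88 CPM (s.d., n = 3), to 86.3% of WT, at a log2 fold change of -0.21 (SE 0.06, 95% interval -0.33 to -0.09, adjusted p = 0.0229 in the edgeR test; exact permutation p = 0.0286). The call held in 3 of the 7 fits that left out 1 library and was lost without WT replicate 1, 2 or 3 (adjusted p = 0.0727, 0.0761 and 0.0548 in edgeR) or WDR6-WKO replicate 2 (adjusted p = 0.101). *Bag3* spans 128523616 to 128546981 on the plus strand of chromosome 7 in 4 exons and shares no 50-base sequence with another gene.

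*Dnajb1* encodes HSP40, the J-domain protein that delivers clients to HSP70 and stimulates its ATPase. Its level was 62.5, 58.4, 60.0 and 57.1 CPM in WT and 57.1, 57.3 and 50.5 CPM in WDR6-WKO replicates 1 to 3. Replicates 1 and 2 of WDR6-WKO were at the lower edge of the WT range and replicate 3 was below it. The log2 fold change was -0.11 with a 95% interval of -0.25 to 0.02 and was not called (adjusted p = 0.262 in the edgeR test; exact permutation p = 0.114). Without WDR6-WKO replicate 3 it was -0.059 (adjusted p = 0.481 in edgeR). The gene lies on chromosome 8 from 83608193 to 83612653 on the plus strand and has 3 exons.

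*Hsp90ab1* and *Hsp90aa1* encode HSP90β and HSP90α, the constitutive and the more inducible form of the chaperone that matures kinases and steroid receptors. *Hsp90ab1* stood at 2417, 2384, 2316 and 2331 CPM in WT and at 2160, 2133 and 2197 CPM in WDR6-WKO replicates 1 to 3. The groups did not overlap, and the 3 WDR6-WKO libraries were close together. The mean went from 2362 ± 47.1 CPM (s.d., n = 4) for WT to a WDR6-WKO mean of 2163 ± 31.7 CPM (s.d., n = 3), which is 91.6% of WT and a log2 fold change of -0.13 (SE 0.04, 95% interval -0.22 to -0.04). This missed the threshold in the edgeR test (adjusted p = 0.0596) and passed it in DESeq2 (adjusted p = 0.0226), in limma-voom (adjusted p = 0.0310) and, in edgeR, without WDR6-WKO replicate 3 (adjusted p = 0.00684). Of the 7 edgeR fits that left out 1 library, only that 1 called *Hsp90ab1*. It was also not called in edgeR with library size alone (adjusted p = 0.125) or with a replicate block (adjusted p = 0.107).

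*Hsp90aa1* was counted at 1304, 1398, 1366 and 1367 CPM in WT and at 1261, 1292 and 1492 CPM in WDR6-WKO replicates 1 to 3. Replicates 1 and 2 were below every WT library and replicate 3 was above every one. The log2 fold change was -0.011 with a 95% interval of -0.13 to 0.11 (adjusted p = 0.929 in the edgeR test), and without replicate 3 it was -0.09 (adjusted p = 0.0851). The value turned to 0.015 when only library size was used for scaling. Of the 50-base sequences of *Hsp90aa1*, 51.5% occur in the processed copy *Gm12346*, which stood at 18.5 CPM in WT and 20.0 CPM in WDR6-WKO (log2 fold change 0.11, adjusted p = 0.462 in the edgeR test). *Hsp90aa1* lies on chromosome 12 (110690605 to 110702728) and *Hsp90ab1* on chromosome 17 (45567775 to 45573271), both on the minus strand and both with 11 exons in the coding transcript.

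*Hspb1* encodes HSP25, a small heat shock protein that holds unfolded proteins without using ATP and binds to actin. It stood at 119, 117, 116 and 114 CPM in WT and at 103, 99.4 and 88.2 CPM in WDR6-WKO replicates 1 to 3. WT libraries differed little, with a coefficient of variation of 1.64%, and all WDR6-WKO libraries were below them. The mean fell from 117 ± 1.92 CPM (s.d., n = 4) for WT to a WDR6-WKO mean of 96.9 ± 7.77 CPM (s.d., n = 3), to 83.1% of WT, with a log2 fold change of -0.27 (SE 0.06, 95% interval -0.39 to -0.14, adjusted p = 0.00632 in the edgeR test; exact permutation p = 0.0286). Here WDR6-WKO replicate 3 was the farthest from WT, the opposite of its place for *Hspa8* and *Hsph1*, and without it the log2 fold change was -0.21 (adjusted p = 0.00129 in edgeR). *Hspb1* was called in all 7 fits that left out 1 library. It lies on chromosome 5 from 135887919 to 135889563 on the plus strand, and 51.6% of its 50-base sequences occur in the pseudogene *Hsp25-ps1*.

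*Hsf1* encodes the factor that trimerises under stress and binds heat shock elements. Its mRNA stood at 33.3, 35.03, 32.0 and 32.3 CPM in WT and at 35.1, 37.1 and 34.6 CPM in WDR6-WKO replicates 1 to 3. The ranges overlapped, and the log2 fold change was 0.10 with a 95% interval of -0.04 to 0.24 (adjusted p = 0.330 in the edgeR test; exact permutation p = 0.0857). HSF1 is controlled largely on the protein, which these data do not measure. The gene lies on chromosome 15 from 76477422 to 76501913 on the plus strand.

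**Figure D2:**
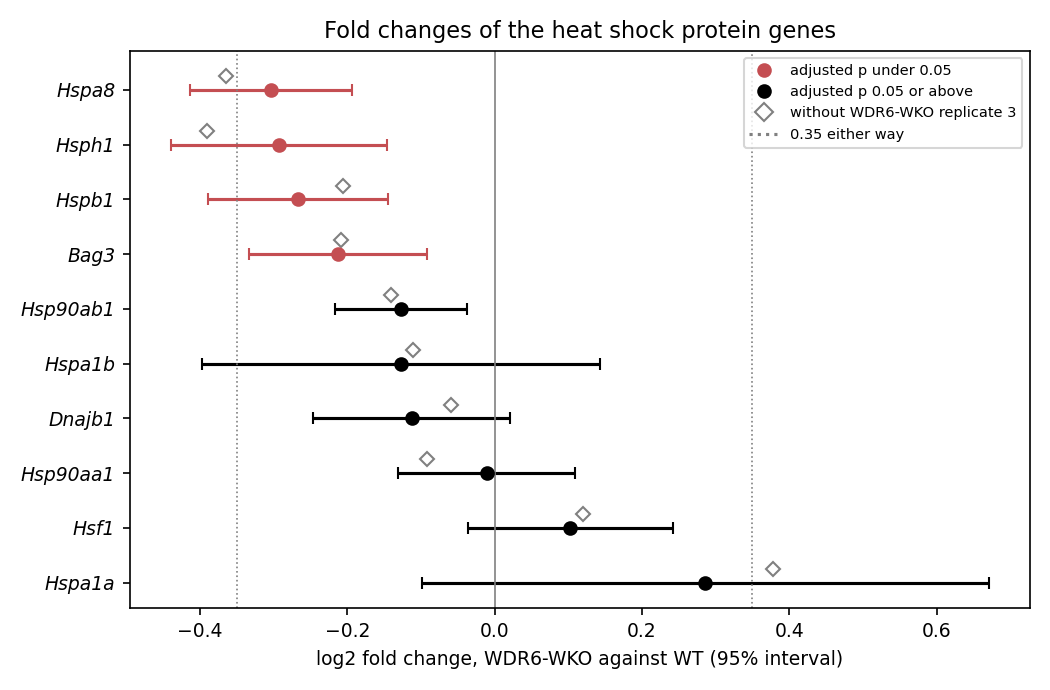
Log2 fold change of WDR6-WKO against WT for the 10 genes with its 95% interval from edgeR's quasi-likelihood test, in red where the adjusted p was under 0.05; open diamonds give the value without WDR6-WKO replicate 3, and dotted lines mark 0.35 in either direction. *Hspa8*, *Hsph1*, *Hspb1* and *Bag3* are red, from -0.30 to -0.21, and *Hspa1a* has the widest interval, -0.10 to 0.67.

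Levels can be compared between genes only per length, as CPM per kilobase of all annotated exons. On this scale *Hsp90ab1* stood at 788 ± 15.7 (s.d., n = 4) in WT hepatocytes, *Hspa8* at 622 ± 20.7 and *Hsp90aa1* at 346 ± 10.0. The order of the first 2 depended on the length: per kilobase of the longest coding transcript, a measure added after seeing the data, *Hspa8* was at 1117 and *Hsp90ab1* at 937, and much of the *Hspa8* sequence is shared with other genes, as given above. *Hspb1* was at 113 ± 1.86 and *Bag3* at 38.1 ± 1.84. *Dnajb1* (18.6 ± 0.731) and *Hsph1* (16.9 ± 0.510) were neighbours, and their order was turned when the longest transcript was used as the length (19.9 and 25.8). *Hsf1* was at 4.67 ± 0.193 (10.6 with the longest transcript and 15.8 with the longest coding one) and *Hspa1b* at 4.04 ± 0.503, which differ by little more than their spread, and *Hspa1a* was lowest at 0.979 ± 0.164. The constitutive genes of the family thus lay far above the inducible HSP70 genes in these untreated cultures.

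Ratios of read counts within a library do not depend on the scaling between libraries, and they are given as descriptions, with no test. Only the ratio of *Hsp90aa1* to *Hsp90ab1* and that of the *Hspa1a* and *Hspa1b* sum to *Hspa8* were planned, and all others given here were added. Among the added ratios, those of *Hspa8* to *Hspa9* and to *Hspa5*, and of *Hsp90aa1* to *Hspa8*, were chosen after the values were seen. *Hspa9* encodes the HSP70 of the mitochondrial matrix and *Hspa5* encodes BiP, that of the endoplasmic reticulum. The ratio of *Hspa8* to *Hspa9* was 3.77, 3.83, 4.11 and 3.92 in WT and 2.76, 2.47 and 2.70 in the WDR6-WKO libraries. The ratio of *Hspa8* to *Hspa5* was 2.28 to 2.42 in WT and 1.94 to 2.09 in WDR6-WKO. The groups were apart for both, WDR6-WKO replicate 3 included. The ratio of *Hsp90aa1* to *Hspa8* was 0.495 to 0.530 in WT and 0.595 to 0.638 in WDR6-WKO. The ratio of *Hsp90ab1* to *Hspa8* was 0.839 to 0.942 in WT and 0.939 to 1.04 in WDR6-WKO, and these ranges overlapped. Ranges also overlapped for *Dnajb1* (2.09% to 2.44% of the *Hspa8* reads in WT, 2.16% to 2.80% in WDR6-WKO) and for *Bag3* (3.36% to 3.98% and 3.57% to 4.17%). *Hsph1* amounted to 4.51% to 4.65% of the *Hspa8* reads in WT and 4.37% to 4.87% in WDR6-WKO, with overlapping ranges.

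**Figure D3:**
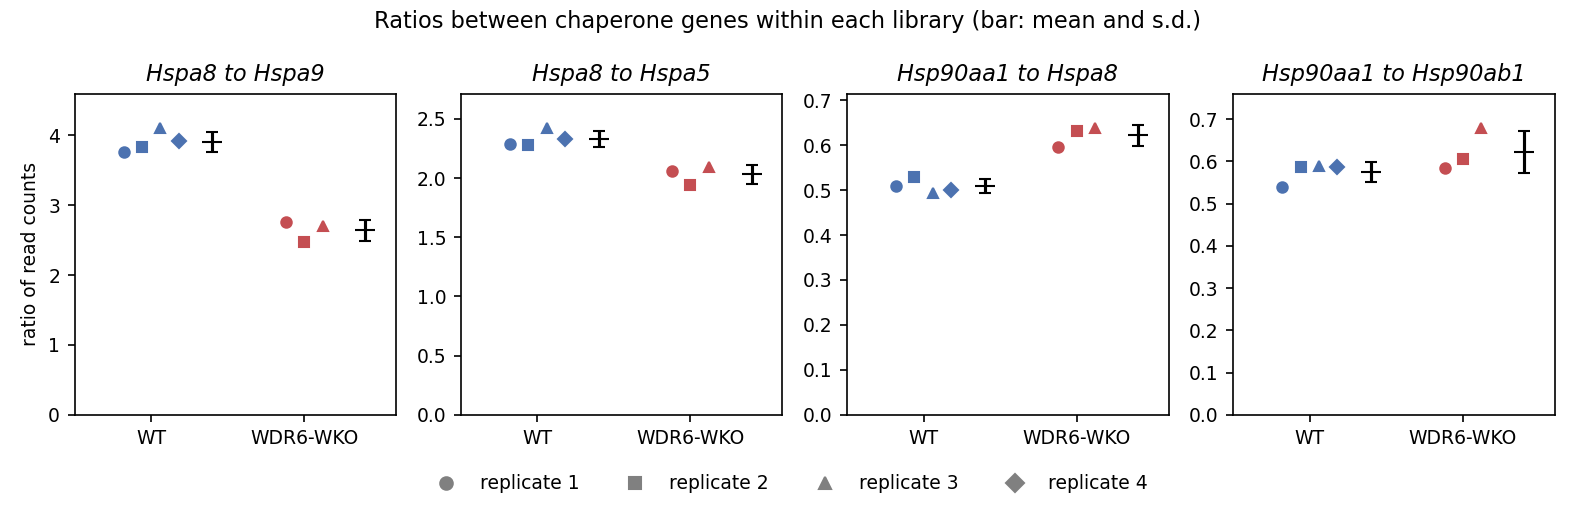
Ratio of read counts of the 2 genes named above each panel in every library, by replicate number, with the mean ± s.d. for each genotype; axes start at 0. The ratio of *Hspa8* to *Hspa9* is 3.77 to 4.11 in WT and 2.47 to 2.76 in WDR6-WKO, while the ratio of *Hsp90aa1* to *Hsp90ab1* overlaps between genotypes.

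The partners of the cytosolic chaperones were counted in lists, all by edgeR's test against the background of 6.18% lower and 6.65% higher. Of 10 other J-domain proteins of the cytosol, 0 were called in either direction, 0 had an unadjusted p under 0.05, and DESeq2 and limma-voom also called 0. Of 8 other HSP70 partners (including exchange factors, *St13* and the ubiquitin ligase *Stub1*), 0 were called by edgeR, DESeq2 or limma-voom. Among the 8, 1 had an unadjusted p under 0.05, *Bag5* at a log2 fold change of 0.25 (adjusted p = 0.0862 in edgeR). Without WDR6-WKO replicate 3, edgeR called 2 of these 8 higher, where it called 14.5% of all genes higher and 14.1% lower. Of the 6 other HSP70 genes tested, *Hspa2* was lower, from 3.85 to 2.49 CPM (log2 fold change -0.64, adjusted p = 0.0279 in edgeR), and without WDR6-WKO replicate 3 the list had 2 lower, against 14.1% of all genes. *Hspa4*, a relative of *Hsph1*, had a log2 fold change of -0.05 (adjusted p = 0.589 in edgeR).

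Of the 3 other small heat shock proteins tested, 1 was lower and 1 higher. *Hspb6* fell from 19.6 to 12.2 CPM (log2 fold change -0.69, adjusted p = 0.000186 in edgeR's test), *Hspb8*, which forms a complex with BAG3, rose from 110 to 139 CPM (log2 fold change 0.34, adjusted p = 0.00077), and *Cryab* was at 0.04 (adjusted p = 0.696). Of 10 regulators of HSF1 and HSF paralogs, 1 was higher and 3 were lower; DESeq2 called 5 lower, with 2000 of all genes called in either direction, and without WDR6-WKO replicate 3 edgeR called 2 higher and 5 lower, against 14.5% and 14.1% of all genes. *Daxx* rose to 133% of WT (adjusted p = 0.00101 in edgeR). *Vcp*, a segregase that extracts ubiquitinated proteins, fell to 87.5% (adjusted p = 0.0239), *Hikeshi*, which carries HSP70 into the nucleus, to 83.2% (adjusted p = 0.0331), and *Hdac6* to 86.7% (adjusted p = 0.0441). *Hsf2* had a log2 fold change of -0.25 and missed the threshold (adjusted p = 0.0560 in edgeR).

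Chaperones of other compartments and the chaperonin of the cytosol were counted in the same way. Of 14 genes of the endoplasmic reticulum 3 were lower and 0 higher, with a median log2 fold change of -0.12. *Hsp90b1*, the HSP90 of that compartment, fell to 84.4% of WT (adjusted p = 0.00332 in edgeR), *Pdia4* to 89.9% and *Calr* to 90.7%, whereas *Hspa5* was at 92.9% and was not called (adjusted p = 0.134). Of 12 mitochondrial chaperones and proteases 3 were higher and 0 lower, with a median of 0.16. *Hspa9* rose from 685 to 820 CPM (log2 fold change 0.26, adjusted p = 0.00186 in edgeR), *Clpp* to 122% of WT and *Grpel1*, encoding the exchange factor of mitochondrial HSP70, to 115%, while *Hspd1*, encoding HSP60, was at 99.7% (adjusted p = 0.969). Of 14 subunits of the CCT chaperonin and of prefoldin, 2 were higher, *Pfdn4* and *Pfdn2*, and 0 lower, with a median of 0.09. Without WDR6-WKO replicate 3, 7 genes of the endoplasmic reticulum were lower, 8 mitochondrial genes and 7 CCT or prefoldin genes were higher, where 14.1% of all genes were called lower and 14.5% higher.

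**Figure D4:**
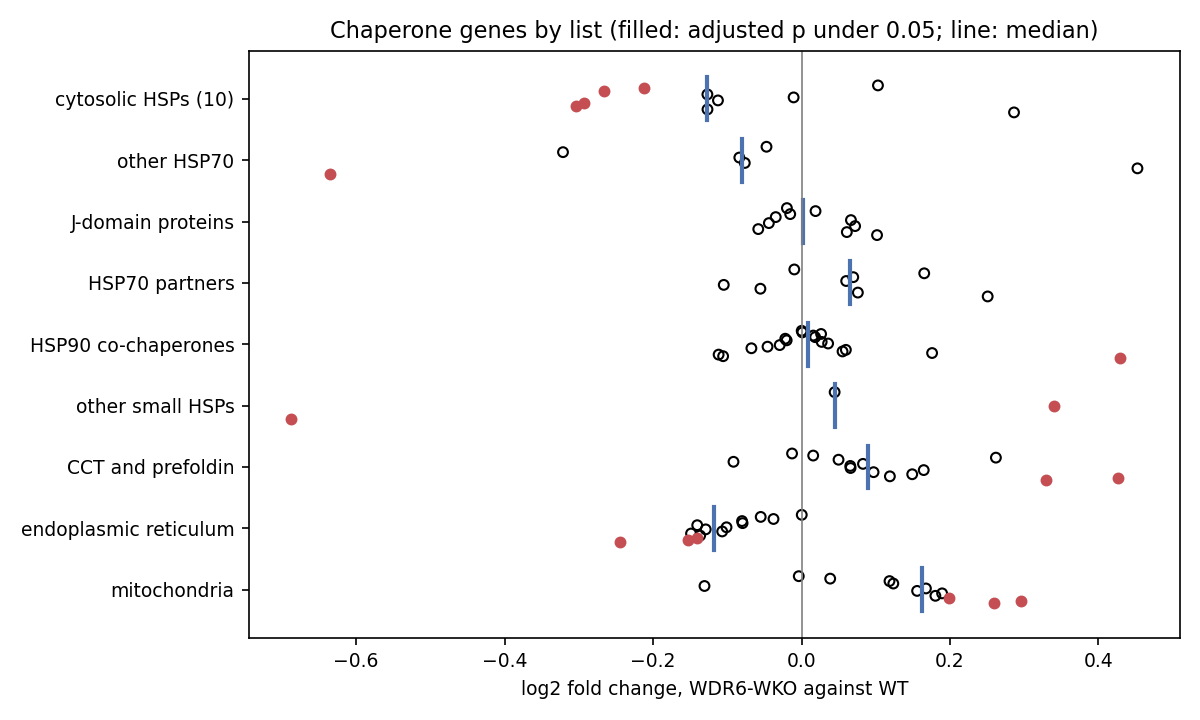
Log2 fold change of WDR6-WKO against WT for each tested gene of the chaperone lists, 1 point per gene, filled where the adjusted p was under 0.05, with a line at each list's median. The medians are -0.13 for the 10 cytosolic genes, -0.12 for the endoplasmic reticulum and 0.16 for the mitochondrial chaperones and proteases.

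In the ubiquitin and autophagy genes, with which BAG3 and HSPB8 work, 2 of 10 were higher and 2 lower, against 6.65% and 6.18% of all genes. Without WDR6-WKO replicate 3, 2 were higher and 3 lower, against 14.5% and 14.1% of all genes. *Sqstm1*, encoding the autophagy receptor p62, rose from 1278 to 1903 CPM, 149% of WT (log2 fold change 0.57, adjusted p = 0.000988 in edgeR). *Ubb*, a polyubiquitin gene, rose to 115% (adjusted p = 0.00787). *Wipi1* fell to 78.2% (adjusted p = 0.00114) and *Nbr1* to 86.9% (adjusted p = 0.0138).

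The genes whose log2 CPM followed *Hspa8* most closely over the 7 libraries, among 10714 genes with a mean of at least 5 CPM, were *Lpgat1* (Pearson r = 0.999), *Slc4a4* (r = 0.996) and *Atp8b1* (r = 0.996). These are descriptions over libraries of 2 genotypes. *Lpgat1* had a log2 fold change of -0.30, *Slc4a4* of -0.47 and *Atp8b1* of -0.40.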

How the data were processed

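RNA-seq of primary hepatocytes was taken as read counts per gene symbol, deposited by the authors without normalization for 4 WT and 3 WDR6-WKO samples. The submitters' processing notes name Bowtie2 2.2.3 and mm10; the counting tool, annotation, strand setting and treatment of reads with several matches are not given in the sources used here, and neither is a splice-aware step. The smallest row total was 50 counts. The 10 members and all gene lists were chosen with earlier results of these data known.

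Counts were filtered with filterByExpr, scaled by TMM and tested with edgeR 4.0.16 (robust quasi-likelihood, genotype only) in R 4.3.3, with Benjamini-Hochberg adjustment over 14779 genes. Single genes were also tested with an exact two-sided permutation test over 35 splits. The code was tested on simulated data. DESeq2 1.42.0, limma-voom 3.58.1, other scalings and filters, a replicate block and leaving out each library were alternatives. List counts without WDR6-WKO replicate 3 and levels per coding transcript length were added after seeing the data. Named genes were the members, *Wdr6*, up to 3 called genes with the smallest p per list, and the 3 genes nearest to *Hspa8*. The rule was not applied to the lists of cell type markers and of HSP90 co-chaperones. *Hspa8* had the highest CPM of the members and, in the edgeR fit of all libraries, the largest absolute fold change (*Hspa1a*, *Hsph1* or *Hspb1* in some alternatives). Other list genes named, *Spp1* included, were chosen after their values were seen. Sharing was counted as exact 50-base sequences in GENCODE M21 transcripts. Protein sequences were not used here. The call count of the HSP90 co-chaperones is not reported here.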

Additional observations from a re-analysis of the deposited data

Results flagged for a closer look

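The ratio of *Hsp90aa1* to *Hsp90ab1* reads had 1 WT library far from the others. It was 0.539 in WT replicate 1 and 0.586, 0.590 and 0.586 in WT replicates 2 to 4, a gap of 0.931 of the whole WT range, above Dixon's 95% critical value for 4 samples. In WDR6-WKO replicates 1 to 3 the ratio was 0.584, 0.606 and 0.679. In all, 20 groups were examined this way, and chance marks about 1 in 20.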

How the results depend on the processing

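Of 152 recomputed fold changes of the 10 genes, 138 kept their direction and side of the threshold, 6 lost the call, 3 gained it and 5 changed sign. *Hsp90aa1* turned to 0.015 with library size alone and ranged from -0.092 to 0.032 with each library left out, and *Hspa1a* turned to -0.033 when summed with *Hspa1b*. *Hsp90ab1* was called by DESeq2 and by limma-voom, each at -0.13. It ranged from -0.14 to -0.12 with each library left out and was called in 1 of those 7 fits. *Hsph1* ranged from -0.39 to -0.22 and *Bag3* from -0.25 to -0.18 in those fits. With each library left out, 2 to 5 of the 10 genes and 1032 to 4233 of all genes were called, the extremes coming without WDR6-WKO replicates 2 and 3, with 1180 to 1210 genes without WDR6-WKO replicate 1 or WT replicate 3 or 4; the cause was not tested. By the thresholds of the study 1532 genes were DEGs, 960 with an adjusted p and 217 with a log2 fold change of 1 or more in either direction. Heat shock element letters were in 1 gene with 3 units, 5 with 2 units and 4 with 1 mismatch, since the patterns are looser. Same-numbered libraries of the 2 genotypes had correlated deviations of r = 0.04, 0.02 and 0.04 across genes, and other pairs ran from -0.13 to 0.12. The labels do not say whether the numbers pair the samples. The check cannot decide it, because each library was centred on the mean of its own small group. With a replicate block 4 of the 10 genes and 1762 of all genes were called, and *Hspa8* was at -0.30. Depth limits *Hspa1a*, with 45 to 87 reads per library.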

Other observations

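Immediate early genes, which cell isolation and other acute stimuli switch on within minutes, were counted beside the heat shock genes. Of 16 such genes tested, 4 were higher and 1 was lower in WDR6-WKO hepatocytes, where 6.65% of all genes were higher and 6.18% lower, with a median log2 fold change of 0.15. *Atf3*, a stress-responsive repressor, rose from 21.3 to 40.6 CPM, 190% of WT (adjusted p = 3.25e-06 in edgeR's quasi-likelihood test). *Myc* rose to 123% of WT (adjusted p = 0.00156), and *Egr1* fell to 71.4% (adjusted p = 2.9e-05). Without WDR6-WKO replicate 3, 10 were higher and 2 lower, against 14.5% and 14.1% of all genes. Their part in the results on heat shock genes was not tested.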
